A study of Mus musculus with 33 samples.

Results

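The 44 interferon-stimulated genes described here are antiviral genes that cells switch on in response to interferon, together with STAT and IRF factors that carry the signal. They were taken by symbol, and all 44 were found among the 55376 gene symbols counted. The libraries came from sorted bone marrow cells of old C57BL/6 male mice, 24 to 29 months of age, with no allele or transgene named for these animals. Untreated mice are called O-WT, mice given 12 mM nicotinamide riboside (NR), a precursor of NAD+, in the drinking water for 4 to 6 weeks are called O-NR, and mice analyzed 2 months after NR was withdrawn are called O-NR-RC. Cohort 2 holds 24 libraries, with 4 O-WT and 4 O-NR libraries each of hematopoietic stem cells (HSCs), of progenitors of the granulocyte and monocyte lineages (GMPs) and of common lymphoid progenitors (CLPs). Cohort 1 holds 9 HSC libraries, with 2 of O-WT mice, 4 of O-NR mice and 3 of O-NR-RC mice. One label field calls the GMP samples common myeloid progenitors, whereas their titles and the study call them GMPs. The populations were sorted by surface markers, HSCs as lineage-negative cKit+ Sca1+ CD34- Flk2- CD150+ cells.

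Type I interferons bind IFNAR1 and IFNAR2, whose kinases TYK2 and JAK1 phosphorylate STAT2 among other proteins. STAT2 joins IRF9 in a complex that binds the interferon-stimulated response element (ISRE) of target genes, while interferon gamma acts through IFNGR1, IFNGR2, JAK1 and JAK2 on the gamma-activated site (GAS). Stem cells are known to keep some interferon-stimulated genes switched on without infection, and interferon can drive dormant HSCs into the cell cycle.

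The promoter sequences of 6 members are shown because the response element that interferon signalling acts on can be read in them. They come from the RefSeq promoter table for GRCm38.p6, run 5′ to 3′ along the strand of the gene, and stop before the first base of the gene in Gencode. Capitals mark each ISRE core, searched as GAAANNGAAA on both strands; on the other strand the core begins with TTTC. Isg15 encodes a ubiquitin-like protein, Ifit1 a protein that binds foreign RNA caps, Oas3 a sensor that makes the messenger of RNase L, Rsad2 (viperin) an enzyme that makes a chain-terminating nucleotide, Gbp3 a guanylate-binding protein and Igtp an immunity-related GTPase.
Isg15, chr4:156200819-156201018, minus strand: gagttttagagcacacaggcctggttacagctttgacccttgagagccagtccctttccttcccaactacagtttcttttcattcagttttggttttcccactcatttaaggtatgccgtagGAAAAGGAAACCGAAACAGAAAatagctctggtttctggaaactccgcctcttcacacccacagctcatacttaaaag
Ifit1, chr19:34640689-34640870, plus strand: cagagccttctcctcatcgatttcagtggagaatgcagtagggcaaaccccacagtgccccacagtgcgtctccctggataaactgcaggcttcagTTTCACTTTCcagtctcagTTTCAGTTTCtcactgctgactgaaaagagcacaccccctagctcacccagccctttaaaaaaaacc
Oas3, chr5:120777662-120777859, minus strand: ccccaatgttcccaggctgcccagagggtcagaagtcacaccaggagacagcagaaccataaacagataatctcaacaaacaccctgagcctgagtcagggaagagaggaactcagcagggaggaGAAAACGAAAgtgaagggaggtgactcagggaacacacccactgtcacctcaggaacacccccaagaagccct
Rsad2, chr12:26456453-26456652, minus strand: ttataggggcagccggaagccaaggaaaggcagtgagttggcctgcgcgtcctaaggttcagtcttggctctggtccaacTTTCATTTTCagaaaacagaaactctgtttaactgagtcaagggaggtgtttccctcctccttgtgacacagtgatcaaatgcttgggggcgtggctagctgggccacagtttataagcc
Gbp3, chr3:142559844-142560025, plus strand: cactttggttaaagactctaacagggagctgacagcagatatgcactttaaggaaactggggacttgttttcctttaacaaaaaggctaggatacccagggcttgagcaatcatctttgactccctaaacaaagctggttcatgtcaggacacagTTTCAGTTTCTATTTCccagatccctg
Igtp, chr11:58199356-58199555, plus strand: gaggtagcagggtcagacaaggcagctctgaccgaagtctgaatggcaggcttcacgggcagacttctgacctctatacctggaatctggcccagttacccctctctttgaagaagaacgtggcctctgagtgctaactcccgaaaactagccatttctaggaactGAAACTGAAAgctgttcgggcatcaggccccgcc
Positions are counted from the RefSeq start. In Isg15 3 overlapping cores lay 78, 72 and 66 bases before the start, and in Gbp3 2 overlapping cores lay 45 and 39 bases before it. The Gencode start of Gbp3 lies upstream of its RefSeq start, so the Gbp3 sequence shown ends short of the point these distances are counted from. Of the 44 members, 32 were in the table, with windows from 250 bases before to 50 bases after the start. An ISRE core was found in 19 of these 32 (59.4%), and in 3.99% of all 27025 genes in the table. The 19 genes held 30 matches, of which 20 began within 150 bases before the start, and 9 genes held more than 1 match in a single window. Trim30a held 1 match in each of 2 windows, at its 2 annotated starts. In 13 of the 32 no core was found. A GAS core, searched as TTCNNNGAA on both strands, was found in 8 of the 32 (25%) and in 9.55% of all genes. Oasl2 and Ifi44, described below, were among those with no ISRE core in this window. A match is a description of these letters and was not tested as a binding site.

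Total counts ranged from 4792380 to 23816042 per library. The marker genes of each sorted population followed the labels, with 6 of 6 HSC markers lower in both progenitors than in HSCs, 6 of 6 CLP markers higher in CLPs and 6 of 6 GMP markers higher in GMPs. Among these markers Kit, Slamf1, Flt3 and Il7r encode proteins used in the sort. Of the 6 GMP markers, 5 were also higher and 1 lower in CLPs than in HSCs. The GMP markers summed to between 230.5 and 424.1 CPM in O-WT CLPs of cohort 2 and between 70.55 and 139.4 CPM in O-WT HSCs. In 9 libraries the TMM scaling factor, which corrects for the composition of a library, was above 1.2. They were HSC O-WT 2 and 3, HSC O-NR 2 and CLP O-WT 2 and 3 of cohort 2, and O-NR 1 and 2 and O-NR-RC 2 and 3 of cohort 1. Reads on 1735 olfactory and vomeronasal receptor genes, which blood cells are not known to express, summed to between 1052 and 4777 CPM (read counts relative to the library total, scaled by TMM) in cohort 2 and to between 6356 and 11228 CPM in cohort 1, where the 4 libraries above 1.2 held 10683 to 11228 CPM and the others 6356 to 8998 CPM. In HSCs of cohort 2 the libraries above 1.2 held 2679 to 3233 CPM and the others 1701 to 2355 CPM. In CLPs the 2 measures did not split alike. CLP O-NR 3 and 4, of factors 1.145 and 1.077, held 4170 and 3977 CPM. CLP O-WT 2 and 3, above 1.2, held 3231 and 4777 CPM. Counts of calls, medians, scores, spreads and the tracking of mice are also given without the libraries above 1.2 or their mice. These alternatives were chosen after seeing the data. The labels do not say how each library was prepared, so p-values measure the spread between libraries, which may be in part technical. In bulk libraries, fewer cells that express a gene and less RNA of it per cell cannot be told apart.

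**Figure D1:**
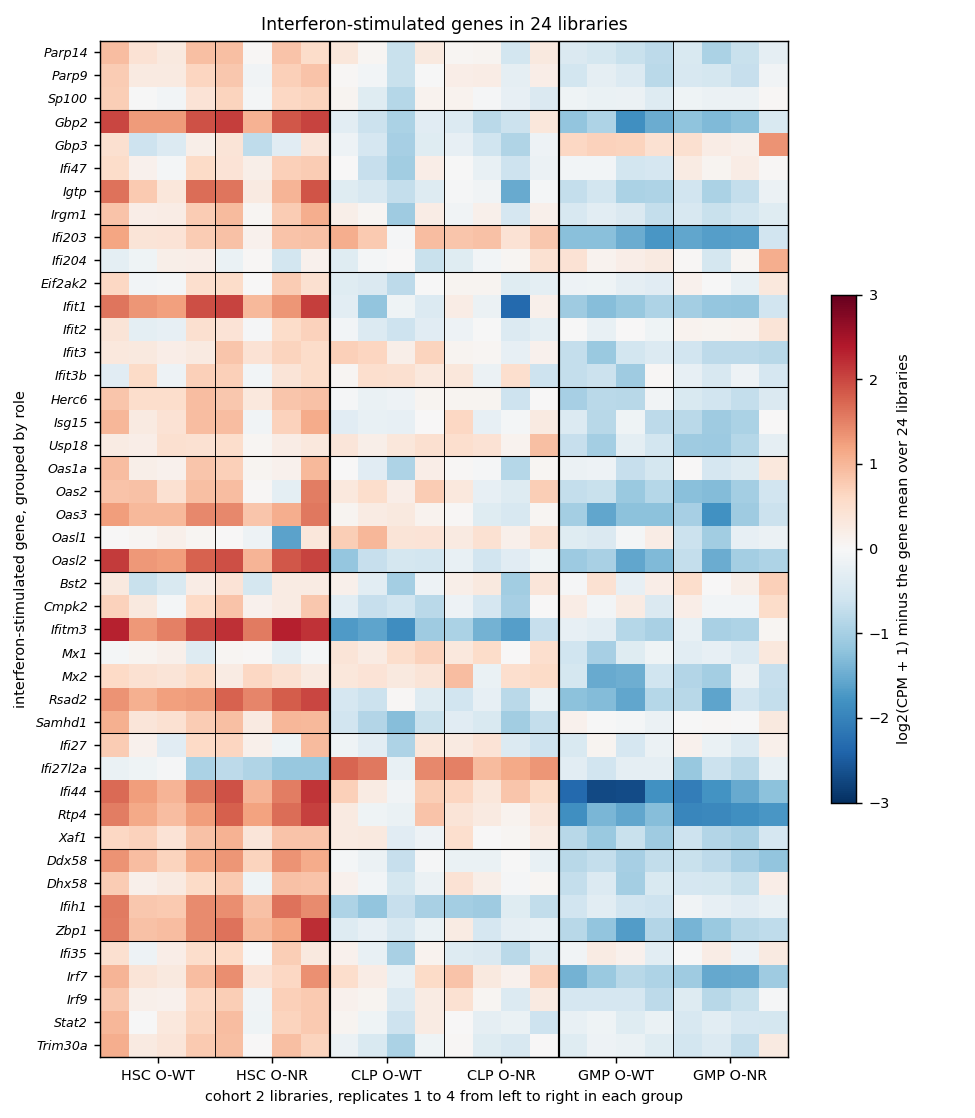
Heat map for the 44 interferon-stimulated genes (vertical axis, by role) in the 24 libraries of cohort 2 (horizontal axis, by cell type and treatment), as log2(CPM + 1) minus the gene's mean over the 24 libraries. Most genes are highest in the 8 HSC libraries and lowest in the 8 GMP libraries, and GMP O-NR 4 stands out among the GMP columns.

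Among untreated mice, HSCs held the highest levels of most of these genes. The order of CLPs and GMPs varied among members, and their difference relative to all genes depended on the filter. The question addressed was where in the early hierarchy of blood cells the interferon program is expressed in old animals. By mean CPM in O-WT libraries, 25 of the 44 members ran in the order HSC, CLP, GMP and 9 in the order HSC, GMP, CLP. Another 7 were highest in CLPs and lowest in GMPs, and 3 were highest in GMPs and lowest in CLPs. The share of all genes in each order was not counted. Of the members, 43 passed the filter on low counts and were tested, and Ifi27l2a was not. Against HSCs, 29 of 43 were lower and 1 was higher in CLPs (adjusted p below 0.05, edgeR's quasi-likelihood test), whereas 19.9% of the 20044 genes tested were lower and 10.4% higher. In GMPs 35 were lower and 1 was higher than in HSCs, with 21.5% of all genes lower and 22.6% higher. Between the 2 progenitors 23 members were higher and 4 lower in CLPs than in GMPs, with 32.2% of all genes higher and 28.6% lower.

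The median log2 fold change of the members was -0.63 in CLPs against HSCs, where that of all genes was 0.08, and -1.15 in GMPs against HSCs, where that of all genes was -0.31. Between CLPs and GMPs it was 0.59, with 0.28 for all genes. Other scalings moved the members and all genes together. Relative to all genes the members' median stayed between -0.71 and -0.69 in CLPs and between -0.84 and -0.82 in GMPs, each against HSCs, under TMM, upper quartile and DESeq2 size factors, and it was -0.56 and -1.23 without the libraries of scaling factor above 1.2. The difference between CLPs and GMPs was less firm. It was 0.31 above that of all genes, but -0.10 with genes kept from over 1 CPM and -0.16 with no filter, and 0.75 without the libraries of scaling factor above 1.2. No called member changed its sign between cell types under any alternative.

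Library by library, the groups often did not overlap. All 4 HSC libraries lay above all 4 CLP libraries for 20 of 43 members, as for 14.8% of all genes tested, and above all 4 GMP libraries for 33 of 43, as for 19.4% of all genes. All 4 CLP libraries lay above all 4 GMP libraries for 17 of 43 members, as for 20.5% of all genes. Without the 4 O-WT libraries of scaling factor above 1.2, 22 of 41 tested members were lower and 1 higher in CLPs than in HSCs, with 20% of 15006 genes lower and 17.7% higher. In GMPs 34 were lower and 1 higher than in HSCs, with 22.1% of genes lower and 29.9% higher, and in CLPs 29 were higher and 4 lower than in GMPs, with 17.9% of genes higher and 28.1% lower. The mouse was also taken as a block, since libraries of the 3 cell types share animals. The calls between CLPs and HSCs then numbered 27 in place of 30, with Isg15, Oasl1, Irf9 and Ifit2 lost and Ifi27 gained. Those of GMPs against HSCs and CLPs against GMPs numbered 36 and 27 as without the block. Of all genes, 10.2% were then higher and 19.6% lower in CLPs than in HSCs. The shares were 22.6% and 20% in GMPs against HSCs, and 28.2% and 28.6% in CLPs against GMPs.

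**Figure D2:**
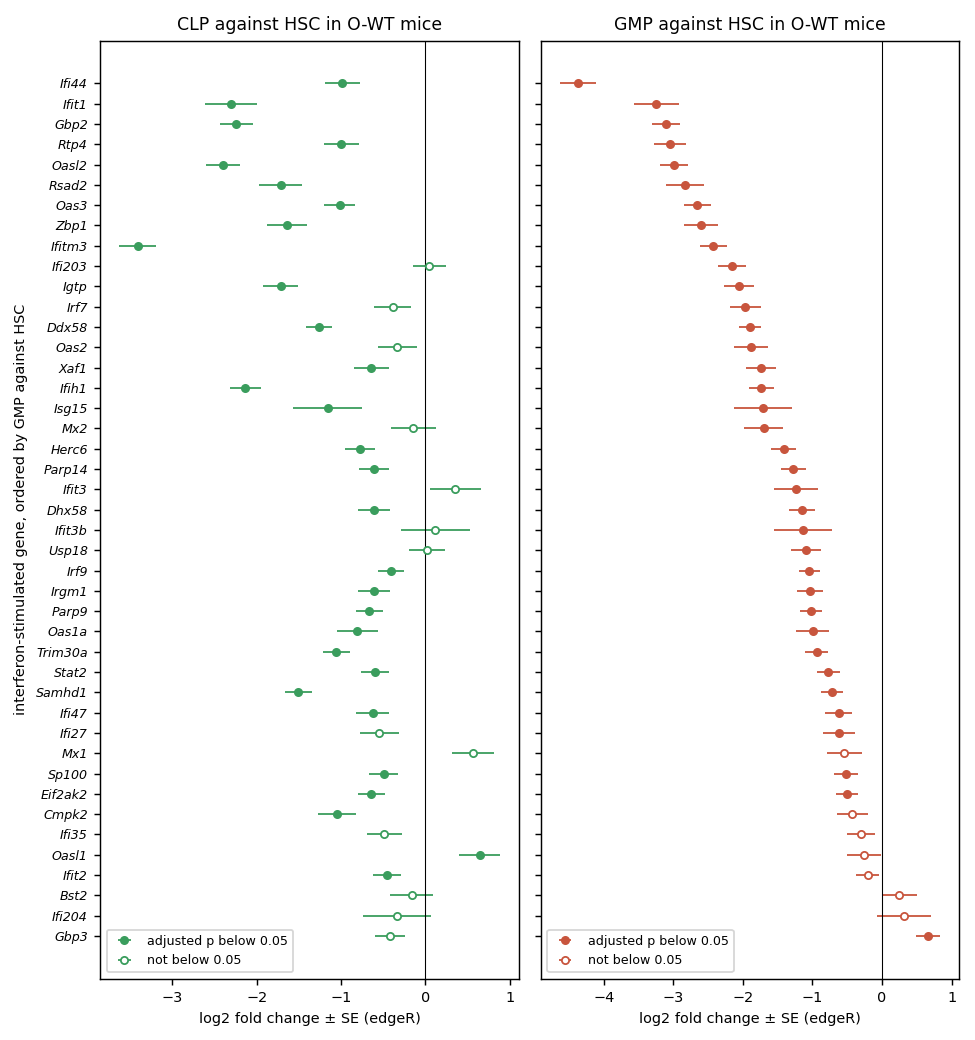
Log2 fold change ± SE from edgeR for each tested interferon-stimulated gene (vertical axis) in CLPs against HSCs (left) and GMPs against HSCs (right) of untreated mice, with 4 libraries per cell type and filled points for adjusted p below 0.05. In the right panel values run from -4.38 for Ifi44 to 0.66 for Gbp3.

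The 4 sensors of foreign nucleic acid were lower in both progenitors than in HSCs. Ifih1 (MDA5), a helicase that senses long double-stranded RNA, measured 92.4, 54.3, 53.9 and 83.9 CPM in the 4 O-WT HSC libraries, 15.8, 13.0, 18.7 and 15.2 CPM in CLPs and 20.4, 24.5, 20.2 and 19.8 CPM in GMPs. Every HSC library exceeded every progenitor library more than 2 times, and GMPs lay above CLPs without overlap. The log2 fold change of Ifih1 was -2.13 ± 0.18 (SE) in CLPs and -1.73 ± 0.17 in GMPs against HSCs, and that of CLPs against GMPs was -0.40 ± 0.18 with an adjusted p of 0.0539. Ddx58 (RIG-I), which senses uncapped RNA ends, measured 95.4, 70.6, 59.3 and 81.5 CPM in HSCs, 35.3, 32.8, 22.6 and 35.9 CPM in CLPs and 20.3, 22.2, 18.1 and 21.6 CPM in GMPs, in steps that did not overlap. Dhx58, the related LGP2, and Zbp1, a sensor of Z-form nucleic acid, were also lower, Zbp1 by -1.64 ± 0.24 in CLPs and -2.60 ± 0.25 in GMPs on the log2 scale. Of the 4 sensors 3, all except Ifih1, were higher in CLPs than in GMPs. Dhx58 shares exonic sequence with an antisense transcript, and the strand setting of the counting was not stated.

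Of the 5 signalling and transcription regulators, 3 were lower in CLPs and 4 in GMPs than in HSCs. Irf9, the DNA-binding partner of STAT2, measured 89.6, 56.6, 55.9 and 78.9 CPM in HSCs, 55.5, 53.7, 38.1 and 60.4 CPM in CLPs and 35.8, 35.4, 35.6 and 29.1 CPM in GMPs. The HSC and CLP ranges of Irf9 overlapped, and GMPs lay below both. Its log2 fold change was -0.41 ± 0.15 in CLPs (adjusted p = 0.0429, and not called with the mouse as a block) and -1.04 ± 0.15 in GMPs. Irf7, the master regulator of type I interferon genes, measured 21.3, 13.5, 12.6 and 19.8 CPM in HSCs, 14.8, 11.8, 8.48 and 15.4 CPM in CLPs and 3.15, 4.11, 5.17 and 4.76 CPM in GMPs. HSC and CLP libraries overlapped, and every GMP library lay below both. Irf7 was lower in GMPs than in HSCs by -1.96 ± 0.23 and higher in CLPs than in GMPs by 1.57 ± 0.23, whereas CLPs and HSCs differed by -0.39 ± 0.22 (adjusted p = 0.187). Irf9 shares exons with Rnf31 on the same strand and Irf7 overlaps Phrf1 on the other strand, so part of their reads cannot be assigned with certainty. Stat2 and Trim30a were lower in both progenitors, and Ifi35 passed the test in neither.

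OAS enzymes sense double-stranded RNA and activate RNase L. Of the 5 OAS and OAS-like genes, 4 changed with cell type in each comparison. Oasl2, an OAS-like protein, measured 96.1, 54.8, 52.8 and 75.6 CPM in HSCs, 9.08, 13.0, 14.7 and 14.3 CPM in CLPs and 9.59, 10.4, 6.65 and 8.09 CPM in GMPs. HSC libraries stood far above the others, and CLPs and GMPs overlapped. Its log2 fold change was -2.40 ± 0.20 in CLPs and -2.99 ± 0.20 in GMPs against HSCs. Oas3 measured 31.8, 25.9, 25.6 and 36.1 CPM in HSCs, 13.3, 15.1, 15.7 and 13.6 CPM in CLPs and 5.76, 3.62, 4.84 and 4.85 CPM in GMPs, with no overlap between any pair of cell types. Oas3 was lower in CLPs by -1.01 ± 0.18 and in GMPs by -2.65 ± 0.20, and higher in CLPs than in GMPs by 1.64 ± 0.20. Oasl1 went the other way in CLPs, with 13.6, 16.4, 10.5 and 10.6 CPM against 7.91, 8.20, 8.70 and 8.14 CPM in HSCs, without overlap. Its log2 fold change was 0.64 ± 0.24 with an adjusted p of 0.0422, and it was not called with the mouse as a block (0.65) or without HSC O-WT 1 (0.57), 3 (0.72) or 4 (0.62) or CLP O-WT 1 (0.68) or 2 (0.56). Gm13822, on the opposite strand, overlaps its exons.

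IFIT proteins block translation of foreign RNA, as does the kinase PKR, encoded by Eif2ak2. Ifit1 measured 16.1, 13.2, 12.1 and 20.6 CPM in HSCs, 3.47, 1.46, 4.11 and 3.19 CPM in CLPs and 1.69, 1.32, 1.56 and 1.98 CPM in GMPs, so that every HSC library exceeded all others. Its log2 fold change was -2.31 ± 0.31 in CLPs and -3.24 ± 0.32 in GMPs. Eif2ak2 measured 93.5, 57.2, 58.6 and 86.5 CPM in HSCs, 46.95, 44.5, 34.8 and 60.2 CPM in CLPs and 54.3, 55.4, 50.1 and 47.9 CPM in GMPs. HSCs and CLPs overlapped in Eif2ak2, and the difference between the progenitors, -0.14 ± 0.16, did not pass the test (adjusted p = 0.450). Ifit3 and Ifit3b, which are near-identical copies whose reads may be split between them, were lower in GMPs than in both HSCs and CLPs, and their CLP to HSC differences of 0.36 ± 0.30 and 0.12 ± 0.41 did not pass the test. Ifit3b measured 2.30, 5.21, 2.78 and 5.82 CPM in HSCs, 3.36, 4.94, 4.86 and 4.20 CPM in CLPs and 1.54, 1.67, 0.985 and 3.32 CPM in GMPs.

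Among the other antiviral effectors, the difference between HSCs and CLPs was largest in Ifitm3, a membrane protein that stops viral fusion, encoded on chromosome 7 at 141009586 to 141010770 (Gencode, GRCm38). It measured 168, 82.6, 95.5 and 134 CPM in HSCs, 9.53, 10.4, 8.35 and 15.4 CPM in CLPs and 27.8, 26.3, 17.8 and 16.4 CPM in GMPs, with no overlap among the 3 cell types. The log2 fold change of Ifitm3 was -3.41 ± 0.21 in CLPs against HSCs, -2.42 ± 0.20 in GMPs against HSCs and -0.99 ± 0.21 in CLPs against GMPs. Samhd1, which depletes the nucleotides that viruses need, showed the same order, with 205, 125, 135 and 166 CPM in HSCs, 64.9, 52.4, 39.9 and 61.1 CPM in CLPs and 107, 96.5, 92.9 and 85.6 CPM in GMPs. Samhd1 was lower by -1.50 ± 0.16 in CLPs and by -0.72 ± 0.16 in GMPs than in HSCs, and lower by -0.79 ± 0.16 in CLPs than in GMPs. Cmpk2, a mitochondrial nucleotide kinase next to Rsad2 on chromosome 12, measured 19.6, 14.6, 11.2 and 18.2 CPM in HSCs, 9.30, 6.97, 7.48 and 6.31 CPM in CLPs and 13.8, 11.0, 14.2 and 8.44 CPM in GMPs. Cmpk2 was lower in CLPs than in HSCs (-1.05 ± 0.22), and its call against GMPs (-0.63 ± 0.23, adjusted p = 0.0202) was lost with upper quartile scaling (-0.15) and without CLP O-WT 2 (-0.50), CLP O-WT 4 (-0.50), GMP O-WT 1 (-0.55) or GMP O-WT 3 (-0.54). Rsad2 measured 20.4, 16.6, 18.8 and 19.5 CPM in HSCs, 4.93, 4.38, 7.60 and 5.46 CPM in CLPs and 2.61, 2.44, 1.89 and 3.68 CPM in GMPs, in non-overlapping steps of -1.72 ± 0.26 for CLPs and -2.84 ± 0.27 for GMPs against HSCs. Mx1 and Mx2, dynamin-like GTPases, were higher in CLPs than in GMPs by 1.11 ± 0.25 and 1.56 ± 0.28. Mx2 is annotated as a polymorphic pseudogene. Bst2 (tetherin), which holds budding virus to the cell, passed the test in no pair of cell types and measured 6.92 to 14.3 CPM in HSCs, 5.24 to 13.0 CPM in CLPs and 9.52 to 16.2 CPM in GMPs.

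The GTPases of the IRG and GBP families, which attack the vacuoles of intracellular pathogens and are known targets of interferon gamma, were lower than in HSCs for 4 of 5 members in each progenitor. Gbp2 measured 89.7, 53.8, 53.5 and 84.5 CPM in HSCs, 17.3, 13.4, 10.7 and 16.9 CPM in CLPs and 8.98, 10.9, 5.34 and 7.01 CPM in GMPs. HSCs lay above the progenitors without overlap, with log2 fold changes of -2.24 ± 0.20 in CLPs and -3.11 ± 0.20 in GMPs. Igtp, whose exons overlap Irgm2, measured 68.0, 37.6, 27.0 and 70.5 CPM in HSCs, 16.4, 14.9, 12.6 and 16.0 CPM in CLPs and 12.7, 14.1, 10.5 and 10.8 CPM in GMPs. Igtp was lower by -1.72 ± 0.21 in CLPs and -2.06 ± 0.21 in GMPs. Gbp3, a neighbor of Gbp2 on chromosome 3, measured 72.5, 33.1, 38.7 and 58.8 CPM in HSCs, 46.4, 36.1, 25.4 and 39.9 CPM in CLPs and 79.9, 84.0, 82.8 and 71.2 CPM in GMPs. It was the only member called higher in GMPs than in HSCs, by 0.66 ± 0.18 (adjusted p = 0.00266), and it overlapped HSC O-WT 1. Without HSC O-WT 3 the value was 0.51 and was not called. Gbp3 was also lower in CLPs than in GMPs, by -1.09 ± 0.18. Ifi47, which shares exons with an olfactory receptor gene, Olfr56, was lower by -0.63 ± 0.19 in CLPs and by -0.62 ± 0.19 in GMPs, and Irgm1 was lower in both as well.

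Of the remaining members, Ifi44 differed most between HSCs and GMPs. It lies on chromosome 3 at 151730922 to 151749960 (Gencode, GRCm38) and measured 43.98, 32.0, 27.4 and 40.1 CPM in HSCs, 21.9, 15.4, 11.97 and 22.4 CPM in CLPs and 1.77, 1.11, 1.15 and 2.96 CPM in GMPs. The log2 fold change of Ifi44 was -0.99 ± 0.21 in CLPs and -4.38 ± 0.26 in GMPs against HSCs, and 3.39 ± 0.26 in CLPs against GMPs. In O-WT GMPs its mean per kb of exon was 0.98 times that of the receptor genes. It did not pass the filter on low counts in the GMP libraries alone. The size of its fold changes with GMPs thus depends on values at background level. Rtp4, a chaperone that also restricts viruses, measured 34.9, 26.2, 22.5 and 28.4 CPM in HSCs, 14.0, 10.2, 9.85 and 21.4 CPM in CLPs and 2.46, 3.76, 3.20 and 4.13 CPM in GMPs, without overlap between cell types. Rtp4 was lower by -0.996 ± 0.21 in CLPs and by -3.05 ± 0.23 in GMPs than in HSCs, and higher by 2.05 ± 0.23 in CLPs than in GMPs. Ifi203, a DNA-binding HIN-200 protein, measured 293, 167, 171 and 218 CPM in HSCs, 273, 223, 124 and 247 CPM in CLPs and 53.4, 53.5, 44.9 and 37.4 CPM in GMPs. Ifi203 separated GMPs from both other populations, with -2.16 ± 0.20 against HSCs and 2.20 ± 0.20 in CLPs against GMPs, while CLPs and HSCs differed by 0.05 ± 0.19 (adjusted p = 0.868). Its exons overlap those of Mndal, a paralog. Parp14, an ADP-ribosyltransferase, measured 169, 120, 108 and 166 CPM in HSCs, 112, 91.3, 55.0 and 108 CPM in CLPs and 65.1, 61.2, 54.8 and 50.7 CPM in GMPs, and Parp9, its partner, and Sp100, a nuclear body protein, were lower in both progenitors as well. Of the 3 genes of ISG15 conjugation, 2 were lower in CLPs and 3 in GMPs than in HSCs. Herc6, the mouse ligase for ISG15, measured 47.5, 38.4, 38.0 and 50.4 CPM in HSCs, 25.6, 22.7, 23.7 and 28.1 CPM in CLPs and 12.7, 14.6, 14.4 and 24.3 CPM in GMPs. It was lower by -0.78 ± 0.18 in CLPs and by -1.41 ± 0.18 in GMPs. Ifi27 measured 11.7 to 26.3 CPM in HSCs, 7.48 to 19.2 CPM in CLPs and 10.3 to 16.1 CPM in GMPs, and was lower in GMPs than in HSCs by -0.62 ± 0.23 (adjusted p = 0.0294).

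Levels can be compared between genes only per length. On the scale of CPM per kb of exon in O-WT mice, Ifitm3 led in HSCs with 177, followed by Ifi203 with 31.7, Gbp2 with 28.0 and Igtp with 25.1. In CLPs Ifi203 led with 32.3, ahead of Ifitm3 with 16.1 and Ifi47 with 12.9. In GMPs Ifitm3 led with 32.6, ahead of Gbp3 with 24.4 and Bst2 with 14.0. The olfactory and vomeronasal receptor genes averaged 0.427 CPM per kb in O-WT HSCs, 0.588 in CLPs and 0.291 in GMPs. In each of the 6 groups of cohort 2, 42 or 43 of the 44 members lay at 2 times this level or more. The exceptions were Ifi204 in HSCs and CLPs, Ifit1 in O-WT CLPs, Ifi27l2a in O-NR HSCs and Ifi44 in GMPs.

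The other genes of the pathway differed in both directions between cell types. Of all genes tested, 10.4% were higher and 19.9% lower in CLPs than in HSCs, and 22.6% higher and 21.5% lower in GMPs than in HSCs. Of 7 interferon receptor and kinase genes, 3 were higher and 2 lower in CLPs than in HSCs, and 4 were higher and 1 lower in GMPs. Ifngr1, the ligand-binding chain of the interferon gamma receptor, was higher in GMPs by 2.23 ± 0.20 on the log2 scale, and Ifngr2 by 1.63 ± 0.17. Ifnar2 was higher by 0.83 ± 0.17 in CLPs and by 1.01 ± 0.17 in GMPs, and Jak2 was lower by -1.24 ± 0.16 in CLPs. Among STAT and IRF genes outside the list, Stat3 was lower by -1.88 ± 0.20 in CLPs and by -0.92 ± 0.19 in GMPs, and Irf2 was lower by -0.54 ± 0.17 and -1.34 ± 0.17. Irf8, which directs monocytic, dendritic and B cell fates, was higher by 4.61 ± 0.23 in CLPs and by 4.86 ± 0.24 in GMPs.

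Of 7 measured adaptors and upstream sensors, 4 were higher and 1 lower in CLPs, and 2 were higher in GMPs. Tlr7, the endosomal sensor of single-stranded RNA, was higher in CLPs by 5.33 ± 0.39, and Tmem173 (STING) was higher by 1.26 ± 0.19 in CLPs and by 0.87 ± 0.18 in GMPs. Of 6 negative regulators, Socs3 was lower by -2.88 ± 0.34 in CLPs and by -3.89 ± 0.36 in GMPs, and Irf2bp2 was higher by 0.83 ± 0.20 and 2.02 ± 0.21. Of 9 interferon genes none passed the filter in cohort 2, where their sum lay between 3.55 and 12.7 CPM in a library and no single gene exceeded 27 reads. Of 20 further interferon-induced genes, 19 were tested. In CLPs 2 were higher and 11 lower than in HSCs, with 10.4% and 19.9% of all genes. In GMPs 3 were higher and 11 lower than in HSCs, with 22.6% and 21.5% of all genes. In CLPs against GMPs 3 were higher and 5 lower, with 32.2% and 28.6% of all genes. The median log2 fold change of this list in CLPs against GMPs was -0.009, so the higher median of the members in CLPs was not seen in it. Ifitm1, a neighbor of Ifitm3 in its gene cluster, was lower by -4.67 ± 0.28 in CLPs and -2.79 ± 0.25 in GMPs. Slfn5 was lower by -1.73 ± 0.21 and -2.81 ± 0.22. Ly6a encodes Sca1, a marker of the sort, so its difference of -5.04 ± 0.34 in GMPs is no finding. Markers of plasmacytoid dendritic cells, which produce interferon and carry Tlr7 and Irf8, moved with CLPs, since 6 of 6 tested were higher there than in HSCs and GMPs. Their 7 markers summed to between 200 and 353 CPM in O-WT CLPs, 125 and 175 CPM in HSCs and 76.3 and 83.9 CPM in GMPs, with Siglech between 13.0 and 42.8 CPM in O-WT CLPs and between 1.10 and 2.31 CPM in HSCs. Of 5 tested neutrophil markers, 5 were higher in CLPs than in HSCs and 1 was higher in GMPs, and the 6 markers summed to between 39.4 and 167 CPM in CLPs and between 10.2 and 11.2 CPM in HSCs. Of 5 tested monocyte and macrophage markers, 4 were higher in CLPs and 5 in GMPs than in HSCs, and the list summed to between 17.5 and 30.9 CPM in HSCs, 50.3 and 67.3 CPM in CLPs and 265 and 499 CPM in GMPs. Of 6 tested B cell and plasma cell markers, 3 were higher and 2 lower in CLPs than in HSCs, and 4 were lower in GMPs. Their sum lay between 48.3 and 737 CPM in O-WT HSCs, between 338 and 743 CPM in CLPs and between 50.9 and 71.5 CPM in GMPs, and Igkc, an immunoglobulin light chain gene, was lower by -5.35 ± 0.64 in CLPs and by -8.65 ± 0.82 in GMPs. The part of these lists in the differences between cell types was not tested.

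No member passed an adjusted p of 0.05 after NR in any cell type of cohort 2, or in any comparison of cohort 1 over all libraries, by edgeR or DESeq2. The comparison asks whether NR changes the interferon program of each population. In HSCs of cohort 2, 2 of 43 tested members had an unadjusted p below 0.01, as did 0.777% of 17364 genes, and the same 2 had a p below 0.05, as did 4.06% of genes. In CLPs 0 of 43 had a p below 0.01 or below 0.05 by edgeR (0 below 0.01 by DESeq2), with 0.412% and 3.21% of 19909 genes. In GMPs 3 of 36 had a p below 0.01 and 5 a p below 0.05, with 0.986% and 4.83% of 13486 genes. DESeq2 gave 1 member in HSCs and 3 in GMPs below 0.01, and 0 after adjustment in each. The members with a positive fold change numbered 29 of 43 in HSCs, 24 of 43 in CLPs and 28 of 36 in GMPs, where 48.8%, 49.3% and 49.4% of all genes were positive. Their median log2 fold change came to 0.04 for HSCs, 0.06 for CLPs and 0.13 for GMPs. Genes of 1 library move together, so these counts are not independent votes.

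Rsad2 measured 20.4, 16.6, 18.8 and 19.5 CPM in O-WT HSCs and 27.6, 22.4, 28.9 and 32.9 CPM in O-NR HSCs. Every O-NR library lay above every O-WT library. The log2 fold change was 0.48 ± 0.13 (unadjusted p = 0.0017 by edgeR, adjusted p = 0.903), and it was 0.38 and no longer below 0.01 without O-NR 4. Rtp4 measured 34.9, 26.2, 22.5 and 28.4 CPM in O-WT and 41.9, 27.7, 38.2 and 50.3 CPM in O-NR HSCs, in ranges that overlapped. Its value of 0.42 ± 0.14 (unadjusted p = 0.00908 by edgeR) lost the 0.01 threshold without O-WT 1 (0.43), 3 (0.35) or 4 (0.38) and without O-NR 1 (0.42) or 4 (0.26). Both stayed below 0.01 without the 3 HSC libraries of scaling factor above 1.2. In the same contrast B cell and plasma cell markers differed among libraries, with their sum between 48.3 and 737 CPM in O-WT HSCs and between 14.8 and 123 CPM in O-NR HSCs, and Ighm had a log2 fold change of -4.86 ± 0.81 (unadjusted p = 1.72e-05, adjusted p = 0.149 by edgeR). Their part in the Rsad2 and Rtp4 values was not tested.

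**Figure D3:**
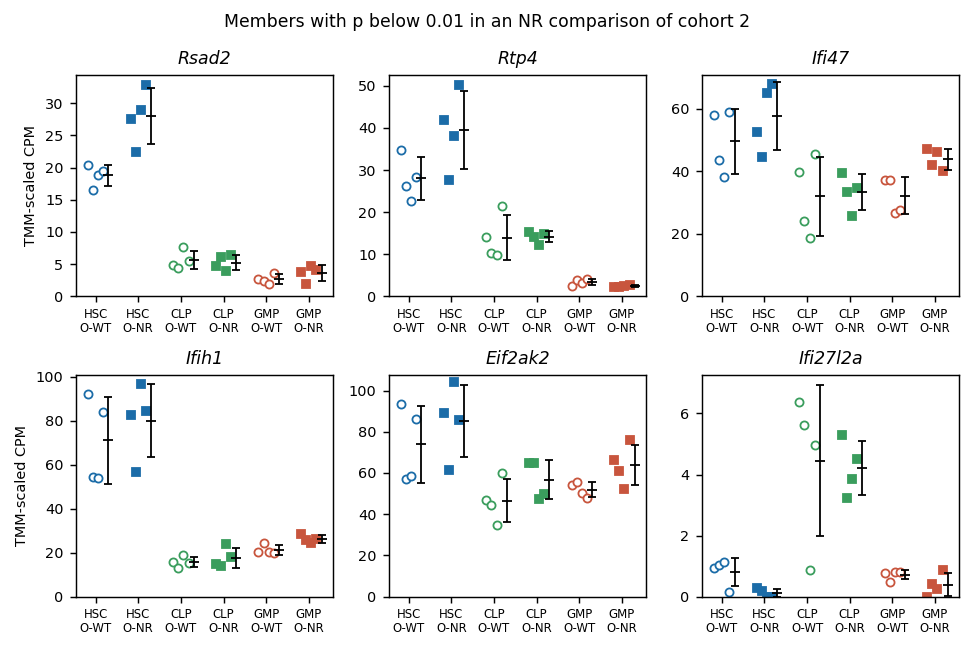
TMM-scaled CPM on linear axes from 0 in each of the 24 libraries of cohort 2, by cell type and treatment, for the members with an unadjusted p below 0.01 in an NR comparison, with the mean ± SD (n = 4) of each group at its right. In HSCs the 4 O-NR points of Rsad2 (22.4 to 32.9 CPM) lie above the 4 O-WT points (16.6 to 20.4 CPM).

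In GMPs Ifi47 measured 37.3, 37.3, 26.5 and 27.8 CPM in O-WT and 47.2, 42.0, 46.2 and 40.3 CPM in O-NR libraries, without overlap. Its log2 fold change was 0.44 ± 0.11 (unadjusted p = 0.00143, adjusted p = 0.745 by edgeR). Eif2ak2 measured 54.3, 55.4, 50.1 and 47.9 CPM in O-WT and 66.3, 60.7, 52.4 and 76.0 CPM in O-NR GMPs, and Ifih1 measured 20.4, 24.5, 20.2 and 19.8 CPM in O-WT and 28.7, 25.7, 24.2 and 26.1 CPM in O-NR GMPs, each with overlapping ranges. Their log2 fold changes of 0.29 ± 0.09 and 0.30 ± 0.10 (unadjusted p = 0.00726 and 0.00763 by edgeR) were no longer below 0.01 without any single library other than O-NR 2 or 3 for Eif2ak2 and other than O-WT 2 for Ifih1, with values from 0.20 to 0.32. Ifi47 stayed below 0.01 on leaving out each library, with values from 0.36 to 0.52. GMP O-NR 4 was the highest of the 8 GMP libraries for 30 of the 44 members (68.2%), where it was the highest for 11.3% of all genes. Without it Eif2ak2 was at 0.20, Ifih1 at 0.30 and Ifi47 at 0.49.

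Outside these genes, Slfn2 was lower in O-NR HSCs (-1.32 ± 0.40, unadjusted p = 0.00436 by edgeR), with 33.2 to 208 CPM in O-WT and 19.0 to 43.5 CPM in O-NR, and Lgals3bp was higher (0.39 ± 0.12, unadjusted p = 0.00609). Ifi30, a lysosomal thiol reductase, was lower in O-NR CLPs (-1.34 ± 0.32, unadjusted p = 0.000207), with 7.48 to 21.2 CPM in O-WT and 4.34 to 5.49 CPM in O-NR. Mavs, the adaptor below RIG-I and MDA5, was lower in O-NR GMPs (-0.32 ± 0.10, unadjusted p = 0.00736). Each had an adjusted p above 0.9. No receptor, kinase, STAT, IRF or negative regulator of the lists had a p below 0.01 in an NR comparison of cohort 2.

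Whether the NR effect differed between cell types was tested directly. Between HSCs and CLPs 1 of 44 members had a p below 0.01 and 2 below 0.05, with 0.403% and 2.3% of 22573 genes. Between HSCs and GMPs 1 had a p below 0.01 and the same 1 below 0.05, with 0.146% and 1.41% of genes. Neither member below 0.01 had passed the filter on low counts in both of the cell types compared. Of the 42 members that had in HSCs and CLPs, 0 had a p below 0.01 and 1, Ifit3, a p below 0.05, and of the 36 that had in HSCs and GMPs, 0 had a p below 0.01 or below 0.05 by edgeR. Between CLPs and GMPs 0 had a p below 0.01 and 1 below 0.05 by edgeR, with 0.403% and 2.9% of genes, and DESeq2 gave 0 below 0.01. No member passed after adjustment, as 0.00443% of genes did in each of the first 2 of these comparisons. The first was Ifi27l2a (2.59 ± 0.96, unadjusted p = 0.00918 by edgeR), which held 0 to 1.13 CPM in HSC libraries and 0.873 to 6.39 CPM in CLPs and so rests on few reads. It entered the test through CLPs, and in O-NR HSCs its mean per kb was 0.62 times that of the receptor genes. Its sign is that of the CLP effect minus the HSC effect, and without a single library it ranged from 2.19 to 3.40 and was below 0.01 in only some of these fits. The other was Rtp4, whose difference of -1.004 ± 0.34 (unadjusted p = 0.0048 by edgeR) compares GMPs, where O-WT held 2.46, 3.76, 3.20 and 4.13 CPM and O-NR 2.21, 2.24, 2.43 and 2.66 CPM, with HSCs. It was -0.91 without HSC O-WT 3 and -0.87 without HSC O-NR 4, each no longer below 0.01.

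In cohort 1 the spread between HSC libraries was wide. The receptor genes lay at 1.11 to 1.97 CPM per kb in its libraries, against 0.3 to 0.57 in HSCs of cohort 2. The ratio of the members to this level was not computed for cohort 1. The filter kept 33350 genes, against 17364 in HSCs of cohort 2, and 5 of the 9 interferon genes passed it. Shares of all genes in cohort 1 may thus count genes at background level. Of 44 members, 36 had a positive fold change in O-NR against O-WT, as did 49.1% of all genes, 0 had a p below 0.01 (0.048% of 33350 genes) or below 0.05 (0.546%) by edgeR, and DESeq2 gave 0 below 0.01. In O-NR-RC against O-NR, 42 of 44 were negative with a median log2 fold change of -0.33, whereas 56.6% of all genes were positive with a median of 0.02. Of the members 0 had a p below 0.01 (0.036% of genes; 0 by DESeq2) and 3 a p below 0.05 (0.291%). These were Ifi27 (-0.66 ± 0.24), Isg15 (-0.69 ± 0.28) and Oas2 (-0.58 ± 0.26), each with an adjusted p of 1.00 by edgeR. Without O-NR-RC 1 the median was -0.76 and 7 of 44 members had a p below 0.01, as did 0.405% of 33339 genes. In O-NR-RC against O-WT 0 members had a p below 0.01 (0.078% of genes; 0 by DESeq2) or below 0.05 (0.795%) by edgeR. The 2 contrasts of O-NR share their O-NR libraries and the 2 of O-WT their O-WT libraries.

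The libraries of scaling factor above 1.2 were the low ones. Igtp measured 38.1 and 56.5 CPM in O-WT, 29.01, 23.2, 102 and 131 CPM in O-NR and 55.1, 28.2 and 25.2 CPM in O-NR-RC, so that O-NR 1 and 2 and O-NR-RC 2 and 3 fell below every other library. Gbp2 measured 62.6 and 70.7 CPM in O-WT, 42.7, 36.9, 103 and 127 CPM in O-NR and 105, 35.7 and 38.6 CPM in O-NR-RC, in the same split. Without those 4 libraries, with 2 untreated, 2 treated and 1 withdrawn library remaining, 19 of 44 members had a p below 0.01 in O-NR against O-WT, all of them higher, as did 1.92% of 25597 genes, and 29 had a p below 0.05, as did 7.87% of genes. The median log2 fold change was then 0.38, with -0.05 for all genes. The largest log2 fold changes among the members were those of Igtp (1.25 ± 0.17), Irgm1 (0.77 ± 0.16), Gbp2 (0.74 ± 0.15) and Zbp1 (0.72 ± 0.15). In the 1 remaining O-NR-RC library Igtp was lower than in the 2 O-NR libraries (-1.17 ± 0.22), on the assumption that the lone library varies like the other groups. The median of the members in O-NR-RC against O-WT turned from -0.18 to 0.19. These libraries were left out for a technical measure, but they are also those of the lowest scores, and whether their low values come from the libraries or from the mice cannot be told apart. Neutrophil markers summed to between 33.7 and 44.9 CPM in O-NR and between 59.3 and 93.1 CPM in O-NR-RC libraries, and B cell and plasma cell markers to between 29.8 and 59.9 and between 63.3 and 286 CPM, and their part in the result was not tested.

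With both cohorts in 1 fit, 1 of 43 members, Rsad2, had a p below 0.01 (0.103% of 23413 genes) and 5 a p below 0.05 (0.923% of genes), and 37 of 43 were positive with a median of 0.10, where 44.7% of all genes were positive. Rsad2 was higher by 0.42 ± 0.11 (unadjusted p = 0.00115, adjusted p of 1.00 by edgeR). In cohort 1 it measured 25.9 and 23.4 CPM in O-WT, 25.7, 22.7, 34.8 and 34.7 CPM in O-NR and 37.2, 19.1 and 19.0 CPM in O-NR-RC. The NR effect differed between the cohorts in 0 of 43 members at a p below 0.01 (0.137% of genes; 0 by DESeq2) and in 0 below 0.05 (1.86%) by edgeR. Rsad2 was no longer below 0.01 with genes kept from over 1 CPM (0.41), with no filter (0.41) or with the replicate number as a block (0.37).

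**Figure D4:**
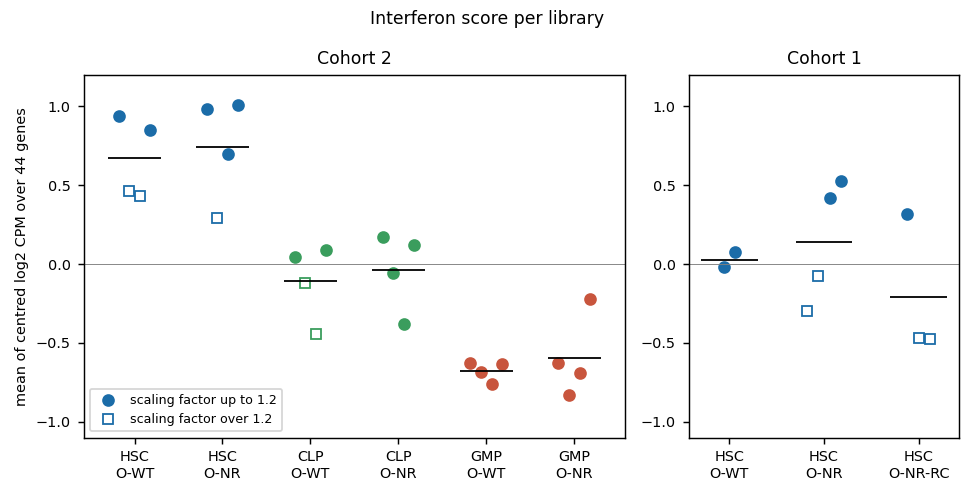
Interferon score of each library, the mean over the 44 genes of log2 CPM centred per gene, for the groups of cohort 2 and cohort 1 (centred separately), with the group mean as a bar and open squares for libraries of scaling factor above 1.2. HSC libraries of cohort 2 lie between 0.29 and 1.01, CLP libraries between -0.45 and 0.17 and GMP libraries between -0.83 and -0.22, and within HSCs and in cohort 1 the open squares are the low ones.

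The score of a library, the mean of the members' centred log2 CPM, summarizes these values and was not tested. It averaged 0.67 ± 0.26 (SD, n = 4) in O-WT HSCs, 0.74 ± 0.33 in O-NR HSCs, -0.11 ± 0.24 in O-WT CLPs, -0.04 ± 0.25 in O-NR CLPs, -0.68 ± 0.06 in O-WT GMPs and -0.59 ± 0.26 in O-NR GMPs. The gaps between O-WT and O-NR were smaller than the SD of either group in HSCs and CLPs. Individual GMP libraries of O-WT ranged from -0.76 to -0.63, and those of O-NR from -0.83 to -0.22. In cohort 1 the O-WT score averaged 0.03 ± 0.07 (SD, n = 2), the O-NR score 0.14 ± 0.39 (n = 4) and the O-NR-RC score -0.21 ± 0.46 (n = 3). Without the libraries of scaling factor above 1.2 the score averaged 0.89 in O-WT HSCs (n = 2) and 0.89 in O-NR HSCs (n = 3) of cohort 2, 0.07 in O-WT CLPs (n = 2) and 0.47 in O-NR HSCs of cohort 1 (n = 2), and the 1 remaining O-NR-RC library was at 0.32.

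The spread of the members among mice was not tested against that of other genes. The median SD of log2 CPM within a group came to 0.39 for the members in HSCs, 0.33 in CLPs and 0.31 in GMPs, 0.32, 0.32 and 0.23 for genes of like mean level, and 0.38, 0.42 and 0.29 for all genes. Without the libraries of scaling factor above 1.2 it was 0.16 for the members in HSCs and 0.23 in CLPs, below the 0.19 and 0.24 of genes of like level. Of the members over 3 CPM in 12 or more libraries, the most variable were Ifit1 with a mean SD of 0.69, Bst2 with 0.48, Igtp with 0.48, Ifit3b with 0.47 and Ifi27 with 0.45. Of those below that limit, Ifi27l2a had 0.75 and Isg15 0.51. In CLP O-NR 3 Ifit1 held 0.124 CPM, where the other O-NR CLP libraries held 3.98 to 5.61 CPM.

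Same-numbered libraries of a condition carry 1 animal tag across the 3 cell types, so the score of a mouse can be followed from HSCs to its progenitors. Over the 8 mice, with each library taken as the difference from its group mean, Pearson's r of the score was 0.62 between HSCs and CLPs, 0.72 between HSCs and GMPs and 0.48 between CLPs and GMPs (Spearman's rho 0.62, 0.81 and 0.62). Without the 2 mice farthest from the median HSC score, O-NR 2 and O-WT 3, r was 0.78, 0.48 and 0.54 (rho 0.43, 0.77 and 0.37). The median r of single members was then 0.345, 0.072 and 0.344, and it was above 0 for 37, 23 and 31 of the 44 members. The values over all genes were not computed without these mice. Mice O-WT 2, O-WT 3 and O-NR 2 have libraries of scaling factor above 1.2. Without O-WT 2 and 3 r was 0.45, 0.77 and 0.46 (rho 0.66, 0.83 and 0.31), with a median r of single members of 0.14, 0.46 and 0.33, and without O-WT 2 and O-NR 2 it was 0.95, 0.58 and 0.57 (rho 0.37, 0.77 and 0.26). Without all 3 of these mice 5 remain, too few for a correlation. With all 8 mice the median r of single members was 0.33, 0.29 and 0.21, with 0.10, -0.22 and -0.04 over all 22573 genes. The r was above 0 for 40, 33 and 33 of the 44 members, and for 60.8%, 31.9% and 46.5% of all genes. Libraries of 1 mouse may also share handling. The receptor reads of a mouse had an r of -0.01, -0.63 and -0.10 between the same cell types, and with these reads subtracted per kb, an alternative chosen after seeing the data, the r of the score was 0.50, 0.58 and 0.29. Mouse O-NR 4 lay above its group mean for 39 members in HSCs, 33 in CLPs and 38 in GMPs. Mouse O-WT 3 lay above it for 6, 10 and 18. Of single genes, Oas2 had the highest mean r, 0.71, followed by Oas1a with 0.63, Gbp2 with 0.60, Oas3 with 0.59 and Ifi44 with 0.58, whereas Ifi35 (-0.35), Ifi27l2a (-0.30) and Ifih1 (-0.23) had the lowest. These are descriptions over 8 mice and carry no p.

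**Figure D5:**
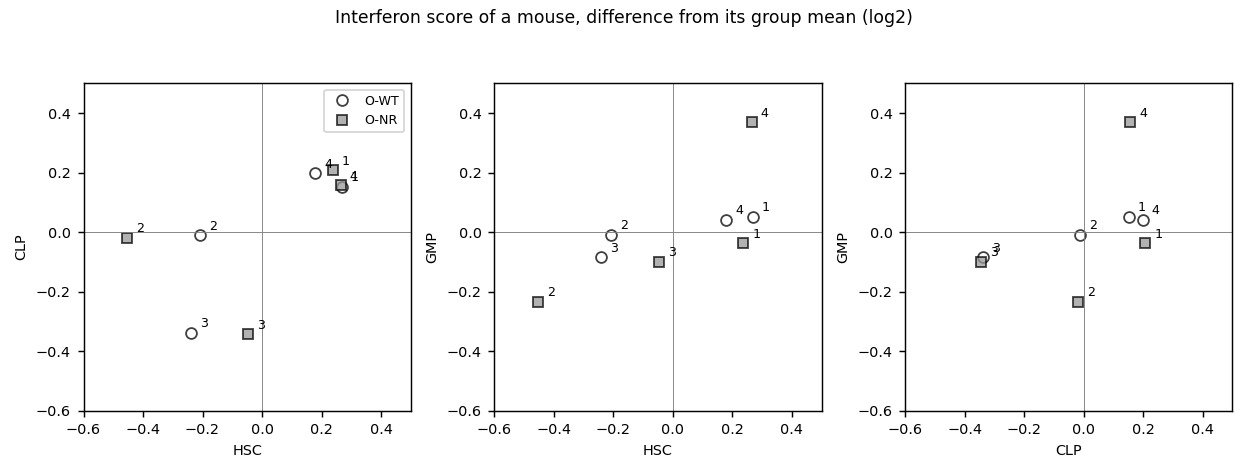
Interferon score of each of the 8 mice of cohort 2 as the log2 difference from its group mean, in 3 panels that set HSCs against CLPs, HSCs against GMPs and CLPs against GMPs, with O-WT and O-NR mice marked. Mouse O-NR 4 lies at 0.27 in HSCs, 0.16 in CLPs and 0.37 in GMPs, and mouse O-WT 3 lies below 0 in all 3.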

How the data were processed

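RNA-seq read counts were deposited by the authors for 33 libraries, 1 table per library with 55376 gene symbols and raw counts that were not normalized. Per the study's methods, total RNA libraries were made with a stranded pico-input kit, reads were trimmed with trim galore and cutadapt, aligned with STAR to mm10 and counted with featureCounts over Gencode M22. The versions of STAR and featureCounts and the strand and multi-mapping settings are not given in the sources used here. Total counts ranged from 4792380 to 23816042 per library, and no 2 libraries of a group agreed within sampling noise (chi-square per degree of freedom of 1.91 or more).

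The counts were tested with edgeR 4.0.16 (quasi-likelihood, TMM scaling, R 4.3.3, limma 3.58.1), keeping genes over 3 CPM in at least 4 libraries (2 in cohort 1, 6 with both cohorts). Cell types were called at a Benjamini-Hochberg adjusted p below 0.05, and NR, withdrawal and interaction effects at an unadjusted p below 0.01, with adjusted values beside them. Alternatives were DESeq2 1.42.0, other scalings and filters, a fold limit, a replicate block, 1 fit of all 24 libraries and each library left out. Libraries of scaling factor over 1.2 were left out, and receptor reads subtracted, as alternatives added after seeing the data. The RUV correction named by the study was not run. The script was tested on simulated counts.

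The genes and gene lists were chosen with earlier results of these data known. Genes named were those with a p below 0.01 for NR, withdrawal or an interaction, up to 5 of the smallest p per cell type comparison and direction, the 5 of largest spread within groups among those over 3 CPM in 12 or more libraries, and the most abundant of each role; others are named where a count or a marker list turns on them. In cohort 2 same-numbered libraries of a condition come from 1 mouse by the animal tag of the deposited tables, so that the block pairs cell types. O-WT and O-NR share only numbers and carry different animal tags. The mean correlation of deviations between their same-numbered HSC libraries was 0.136 (lowest -0.276). Between cell types of 1 mouse it ranged from -0.192 (HSCs and GMPs of O-WT) to 0.273 (HSCs and CLPs of O-WT). These correlations thus do not tell libraries of 1 mouse from others. Promoters were matched by symbol to RefSeq, with 12 of 44 genes not in the table. Lengths and overlaps come from Gencode M21 (GRCm38). One gene of the lists of other pathway genes is not reported here.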

Additional observations from a re-analysis of the deposited data

Results flagged for a closer look

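In 14 of 189 groups of 4 libraries (genes named in the report), the highest or the lowest library stood apart from the other libraries of its group by Dixon's 95% limit, where chance gives about 1 in 20. GMP O-NR 4 was the high library for Ifi203 (85.3 CPM), Gbp2 (15.4 CPM) and Samhd1 (119 CPM), and it was the highest of all 8 GMP libraries for 30 of the 44 members. HSC O-NR 2, a library of scaling factor above 1.2, was the low one for Irf9 (46.98 CPM), Ifi203 (139.5 CPM) and Samhd1 (117.5 CPM). CLP O-NR 3 was the low library for Ifi203 (173 CPM), Igtp (6.83 CPM) and Herc6 (16.8 CPM) and the high one for Ddx58 (36.5 CPM). GMP O-WT 4 was low for Irf9 (29.1 CPM) and high for Herc6 (24.3 CPM). GMP O-WT 2 was low for Ifi27l2a (0.487 CPM) and high for Ifih1 (24.5 CPM). No difference of the NR effect between cell types or cohorts passed an adjusted p of 0.05 in a member.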

How the results depend on the processing

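No result changed its sign when called, and the calls between cell types kept to within 1.5 times except for CLPs against HSCs with no CPM filter, where 19 members were called in place of 30. Leaving out 1 library gave 20 to 30 calls there. The median of CLPs against GMPs moved from 0.59 to 1.07 with upper quartile scaling. Counts of members with a p below 0.01 for NR are small and moved easily. Except where stated, shares of all genes are not given for the settings of this paragraph, so its counts are not read as results about the members. In HSCs of cohort 2 the count was 2, and it was 0 with a fold limit of 1.5, 1 with upper quartile scaling, over 1 CPM, DESeq2 or all 24 libraries in 1 fit, and 0 to 2 without 1 library. In GMPs it was 3, and it was 0 with the fold limit, 1 with all 24 libraries and 1 to 3 without 1 library. With both cohorts it was 1, and it was 0 with the fold limit, over 1 CPM or no filter, 2 with upper quartile scaling or DESeq2, and 1 to 3 without 1 library. Between cohorts it was 0, and 1 over 1 CPM or with no filter. Between HSCs and CLPs it was 1, and 0 with upper quartile scaling, 2 with DESeq2 and 0 to 1 without 1 library, which also gave 0 to 2 between HSCs and GMPs and 0 to 1 between CLPs and GMPs. For O-NR-RC against O-NR it was 0, and 2 with upper quartile scaling and 0 to 7 without 1 library, with medians from -0.76 to -0.17. The 7 came without O-NR-RC 1, where 0.405% of all genes had a p below 0.01, against 0.036% with all libraries. The O-NR-RC libraries left in that fit, 2 and 3, were those of scaling factor above 1.2. For O-NR-RC against O-WT 1 library less gave 0 to 1, with medians from -0.574 to -0.021. The score of O-WT GMPs was -0.49 over members above 3 CPM. The causes of these moves were not tested.

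Without the libraries of scaling factor over 1.2 the counts (with the share of all genes) were 19 (1.92%) in O-NR against O-WT of cohort 1, 3 (3.86%) in O-NR-RC against O-NR, 3 (10.6%) in O-NR-RC against O-WT (median 0.19), 3 (0.591%) with both cohorts, 3 (1.57%) between cohorts, 0 (0.475%) between HSCs and CLPs and 2 (0.374%) between CLPs and GMPs.

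With the replicate block the count was 0 (0.316% of all genes) with both cohorts, 5 (16.3%) between cohorts and 0 (0.328%) between HSCs and CLPs. O-WT and O-NR libraries share only a number, and the block is the mouse only between cell types. The block moved no other count of members by over 1.5 times.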
